A study of Mus musculus with 21 samples.

Results

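Rxra and Rxrb encode retinoid X receptor alpha and beta, the receptors that this study set out to delete in mouse blood cells. They are 2 of the 28987 gene identifiers in the deposited expression table, and they own 4 of the 46443 events in the deposited splicing table, 2 events each. Members were taken by gene symbol alone, without use of any measured value. Both genes stood at 1 TPM (a transcript abundance on a fixed scale per library) or more in all 21 libraries.

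Retinoid X receptors are nuclear receptors that bind DNA in pairs with other nuclear receptors, among them the receptors for retinoic acid (RAR), for oxysterols (LXR), for fatty acids (PPAR), for thyroid hormone and for vitamin D. The alpha and beta forms are found in most tissues, and the gamma form, from Rxrg, mainly in muscle and brain. In blood formation these pairs act in the control of lipid handling and retinoid breakdown, and in the balance between rest and differentiation of stem cells.

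The series has 15 libraries of LT-HSC, long-term stem cells at the root of blood formation, and 6 of MPP, the multipotent progenitors that they give rise to. All were sorted from bone marrow, per the labels' protocols from lineage-negative cells of pooled animals. No source used here states the animals' ages. Batch 1 holds floxed controls, which carry the floxed alleles of Rxra and Rxrb without Cre, and knockouts, which carry the same alleles with Vav1-Cre (spelled VaviCre in these titles), each as 3 LT-HSC and 3 MPP libraries. Batch 2 holds LT-HSC alone, with 3 libraries of Vav1-Cre controls on wild-type alleles, 3 labelled as knockouts of the same receptors, and 3 of such knockouts that also carry a floxed allele which the titles write as Mycl and the descriptions as Myc, here the Myc allele. The Vav1 promoter drives Cre in blood cells from their origin onwards, and the labels do not name the floxed exons. The control genotype changes with the batch, so a difference between batches and a difference between controls cannot be told apart.

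The LT-HSC and MPP marker lists were each higher in the cells of their name, and markers of B cells were present too. The summed level of 9 LT-HSC markers was 392 to 942 TPM over the LT-HSC libraries and 172 to 240 TPM over the MPP libraries, and 5 MPP markers summed to 28.5 to 130 TPM in LT-HSC and 962 to 1861 TPM in MPP. In floxed control MPP, sorted as lineage-negative, 6 B cell markers summed to 2155 to 11705 TPM, above the 962 to 1838 TPM of the MPP markers there. All libraries had between 12435 and 14870 genes at 1 TPM or more, and TPM keep no record of how many reads lie behind a value. The identifier ENSMUSG00000089855, which has no symbol in the reference, took 56.5% of the table in floxed control LT-HSC 2, and a mean of 37.3% ± 16.7 (SD, n = 3) in floxed control LT-HSC against 22.2% ± 3.23 (SD, n = 3) in knockout LT-HSC. Every TPM in a library moves against that share. The log2 change of the median gene between knockout and floxed control LT-HSC was 0.52 in the deposited TPM, and results are therefore also given after rescaling, in which each library was divided by a size factor (its median ratio to the other libraries of the fit).

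Rxra lies on chromosome 2 (27676445 to 27763319, GRCm38), a gene of 86875 bases. Rxrb is compact, 6592 bases on chromosome 17 (34031812 to 34038403), and sits head to head with Slc39a7, a zinc transporter of the secretory pathway on the other strand. Only 121 bases separate their annotated starts, and this stretch is shown because the values of both genes in knockout MPP are set side by side further on. The sequence is from RefSeq (GRCm38.p6, chr17:34031691-34031811, read along the strand of Rxrb), with CG dinucleotides in capitals.
Slc39a7 to Rxrb: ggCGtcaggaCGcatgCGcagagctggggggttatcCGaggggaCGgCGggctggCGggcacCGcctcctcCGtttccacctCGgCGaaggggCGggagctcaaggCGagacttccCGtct
It holds 14 CG dinucleotides, and 71.1% of its bases are G or C.

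The splicing table lists a junction of Rxra that skips an exon. The labels do not name the floxed exons, so whether this junction marks their deletion was not tested. Both Rxra events start at the same splice site, position 27741203 on chromosome 2 (mm10). One junction ends at 27741764, in what the table calls exon block 8, and the other passes over that block to 27748612, in exon block 9. The values are percent spliced in (PSI), the share of reads on the examined junction against its competitors, on a scale of 0 to 1, and the number of reads behind each value is not given. The skipping junction had PSI 0 in 8 of the 9 control libraries and 0.1 in the other, floxed control LT-HSC 2. Inclusion of the block had PSI 1 in 7 of those controls and 0.846 in floxed control LT-HSC 2, with no value in floxed control MPP 1.

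In the batch 1 knockouts the skipping junction was the major form in 2 of the 3 libraries that have a value. It had PSI 0.938 in knockout LT-HSC 1, 1 in knockout MPP 1 and 0.5 in knockout MPP 3. These 3 libraries lie above all 9 controls. Inclusion of exon block 8 was listed at 0 in knockout LT-HSC 1 and in knockout MPP 1. The other 3 knockout libraries of this batch have no value for the junction, so skipping was not measured in them. Their Rxra level, 2.09 to 3.38 TPM, lay inside the 2.02 to 5.17 TPM of the controls that do have a value. Between MPP groups the mean skipping PSI was 0.75 (knockout, n = 2) against 0 (floxed control, n = 3), with an exact two-sided permutation p of 0.1, the smallest that 2 against 3 libraries allow.

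In batch 2 skipping stayed at or below the highest control value of 0.1 in all 3 libraries labelled knockout. Skipping had PSI 0 in the library labelled knockout LT-HSC 4, 0.0127 in the library labelled knockout LT-HSC 5 and 0 in the library labelled knockout LT-HSC 6, and PSI 0 in each of the 3 Cre controls. Inclusion was 0.978 in labelled knockout 5 and 1 in labelled knockout 6, with no value in labelled knockout 4. The mean skipping PSI differed by 0.00422 from the Cre controls (limma on PSI, adjusted p = 1, where 0.0316% of 25312 events were called). By this junction, exon block 8 of Rxra was present in the spliced RNA of labelled knockouts 5 and 6 at the level of a control, and every later value from these libraries is therefore attached to the label and not to a deletion.

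The libraries with the Myc allele were not alike. Skipping had PSI 0.647 in Myc allele LT-HSC 1, 0 in Myc allele LT-HSC 2 and 1 in Myc allele LT-HSC 3, and inclusion had PSI 0.185, 1 and 0 in the same order. The first and the last stood above every control, while Myc allele LT-HSC 2 had the values of a Cre control. The mean difference in skipping from the Cre controls, 0.55, did not pass (limma on PSI, adjusted p = 0.826, where 0.0198% of events were called). Over the 12 libraries that carry Cre with floxed alleles, 9 have a value for skipping, 5 of them above the highest control and 4 at or below it. No event in the table reads a deletion in Rxrb, so recombination of that gene was not measured.

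**Figure D1:**
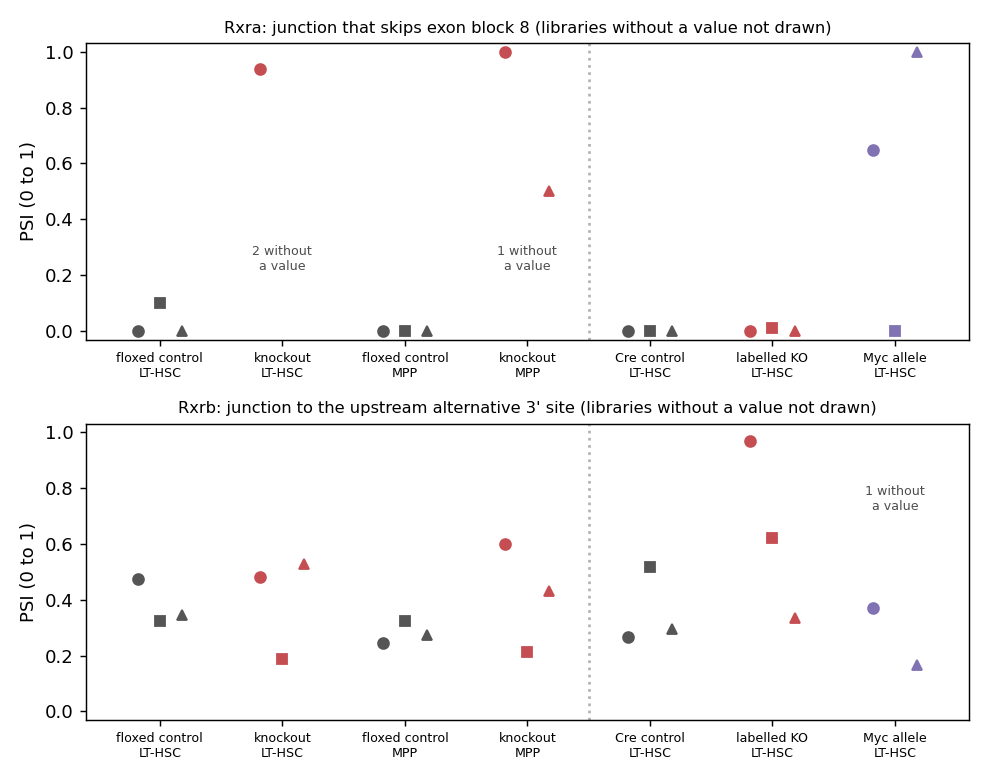
Percent spliced in (PSI, 0 to 1) of the Rxra junction that skips exon block 8 (upper panel) and of the Rxrb junction to its upstream alternative 3' site (lower panel), 1 point per library, with the replicate shown by its symbol and batch 1 left of the dotted line. In the upper panel 5 points lie above the highest control value of 0.1, namely 3 of batch 1 knockouts and 2 with the Myc allele, and the 3 libraries labelled knockout in batch 2 lie at 0 to 0.0127.

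Rxra was the less abundant of the receptors, at 1.27 to 7.46 TPM with a median of 3.09 TPM over the 21 libraries. TPM are per transcript length, so levels can be set side by side between genes. A TPM of the whole gene includes exons outside a deleted block, so it does not measure a deletion, and in sorted cells in bulk fewer expressing cells and less RNA per cell cannot be told apart. In batch 1 LT-HSC, Rxra stood at 5.17, 3.87 and 2.37 TPM in the floxed controls and at 3.17, 3.38 and 2.88 TPM in the knockouts. All 3 knockout values lie inside the range of the controls. The log2 change was −0.17 (SE 0.21, adjusted p = 0.476, limma with Benjamini-Hochberg adjustment, as are all adjusted p-values here). After rescaling it was −0.68 (SE 0.22, adjusted p = 0.0835), and it passed only when floxed control LT-HSC 3, the lowest of the controls, was left out (−0.98, adjusted p = 0.0157). In the deposited TPM 2.91% of the 14839 genes tested had a lower change than Rxra, and that of the median gene was 0.52.

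In MPP the Rxra level was nearly the same with and without Cre. The floxed controls stood at 2.02, 2.14 and 2.19 TPM and the knockouts at 2.20, 2.09 and 1.77 TPM, with overlapping ranges. The log2 change was −0.05 (SE 0.21, adjusted p = 1, where 0.323% of all genes were called). Knockout MPP 1 had the highest Rxra level of the 6 MPP libraries and a skipping PSI of 1. In that library the whole-gene level was above all 3 floxed controls while the reads at this splice site skipped exon block 8.

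Batch 2 held both the lowest and the highest Rxra level of the series, within a single group. The libraries labelled knockout stood at 1.27, 7.46 and 4.00 TPM (labelled knockout 4, 5 and 6), against 4.14, 4.85 and 4.58 TPM in the Cre controls. The SD of the labelled knockouts was 3.11 TPM and that of the Cre controls 0.362 TPM. The log2 change was −0.27 (SE 0.43, adjusted p = 0.812, with 0.0744% of genes called), and it moved to −0.71 without labelled knockout 5 and to 0.24 without labelled knockout 4. The Myc allele libraries stood at 4.08, 3.09 and 2.13 TPM, all below the lowest Cre control, as were 11.9% of all genes tested. Their log2 change of −0.46 (SE 0.43, adjusted p = 0.644, with 0.104% of genes called) did not pass, and the exact two-sided permutation p was 0.1, the smallest that 3 against 3 libraries allow.

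Rxrb was the more abundant receptor in every library, at 6.397 to 18.8 TPM with a median of 12.6 TPM. In batch 1 LT-HSC it stood at 14.9, 7.52 and 14.04 TPM in the floxed controls and at 9.30, 9.85 and 12.6 TPM in the knockouts. The low control value is floxed control LT-HSC 2, the library in which ENSMUSG00000089855 took 56.5% of the table. In the deposited TPM the groups overlapped, and the log2 change was −0.14 (SE 0.23, adjusted p = 0.5995). It was nonetheless low for this comparison, since 3.30% of the 14839 genes tested had a lower change and 45.2% passed the test, 44.6% upward and 0.58% downward.

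After rescaling, Rxrb fell in knockout LT-HSC of batch 1. The rescaled levels were 15.9, 12.2 and 15.9 in the floxed controls and 8.71, 7.00 and 9.39 in the knockouts. The log2 change was −0.74 (SE 0.15, adjusted p = 0.0253), where 4.68% of all genes passed in either direction, 2.2% upward and 2.47% downward. It was −0.86 (adjusted p = 0.0248) without floxed control LT-HSC 2. It no longer passed without knockout LT-HSC 2 (−0.63, adjusted p = 0.0911) or without knockout LT-HSC 3 (−0.82, adjusted p = 0.0956).

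In MPP, Rxrb was lower in the knockouts in every pairing of libraries. It stood at 15.8, 17.99 and 18.8 TPM in the floxed controls and at 9.55, 10.7 and 13.6 TPM in the knockouts. No knockout reached the lowest control, which held in that direction for 6.25% of all genes tested. The log2 change was −0.61 (SE 0.23), and only 2.48% of genes had a lower change, but its adjusted p was 0.532 (0.0838 rescaled, at −0.67, with 0.526% of genes called). The exact two-sided permutation p was 0.1, the smallest possible here. The size factors of these 6 libraries ran from 0.931 to 1.12.

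The batch 2 libraries gave the same order with the deposited TPM. Rxrb stood at 15.1, 16.0 and 14.5 TPM in the Cre controls, at 12.8, 10.6 and 11.1 TPM in the libraries labelled knockout, and at 6.397, 8.59 and 8.88 TPM in those with the Myc allele. Both floxed groups lay wholly below the Cre controls, as did 16.1% and 11.9% of all genes tested in these comparisons. The log2 changes were −0.38 (SE 0.27, adjusted p = 0.705) for the labelled knockouts and −0.87 (SE 0.27, unadjusted p = 0.0064, adjusted p = 0.503) with the Myc allele, and each exact two-sided permutation p was 0.1. Rescaling gave labelled knockout levels of 13.96, 13.1 and 9.75 against Cre control levels of 13.6, 14.3 and 12.6, which overlap, with a log2 change of −0.14 (adjusted p = 0.951, with 0.0595% of genes called). With the Myc allele the rescaled levels were 5.53, 8.85 and 10.4 (−0.68, adjusted p = 0.523, with 0.0818% of genes called).

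Over the 12 libraries with Cre and floxed alleles, 9 had an Rxrb level below the lowest of their own controls, and 33 of 36 pairs of such a library with a control had the lower value in the Cre library. For Rxra the same counts were 6 of 12 and 26 of 36. The groups in batch 2 share their controls, so these counts are a description. They rest on the deposited TPM, and the share of all genes with such counts was not computed. There the median gene had a log2 change of −0.25 (labelled knockouts) and −0.21 (Myc allele) in batch 2. In batch 1 it was 0.52 (LT-HSC) and 0.08 (MPP). After rescaling, the Rxrb levels of the labelled knockouts overlapped those of the Cre controls. With batch as a term, the 6 LT-HSC libraries labelled knockout in both batches, of which the 3 of batch 2 have the control-like junction, had an Rxrb log2 change of −0.26 (SE 0.21, adjusted p = 0.676, with 0.421% of genes called) against the 6 controls, and an exact two-sided permutation p within batches of 0.085, where 0.005 was the smallest possible. For Rxra these values were −0.22 (SE 0.27, adjusted p = 0.850) and 0.67.

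**Figure D2:**
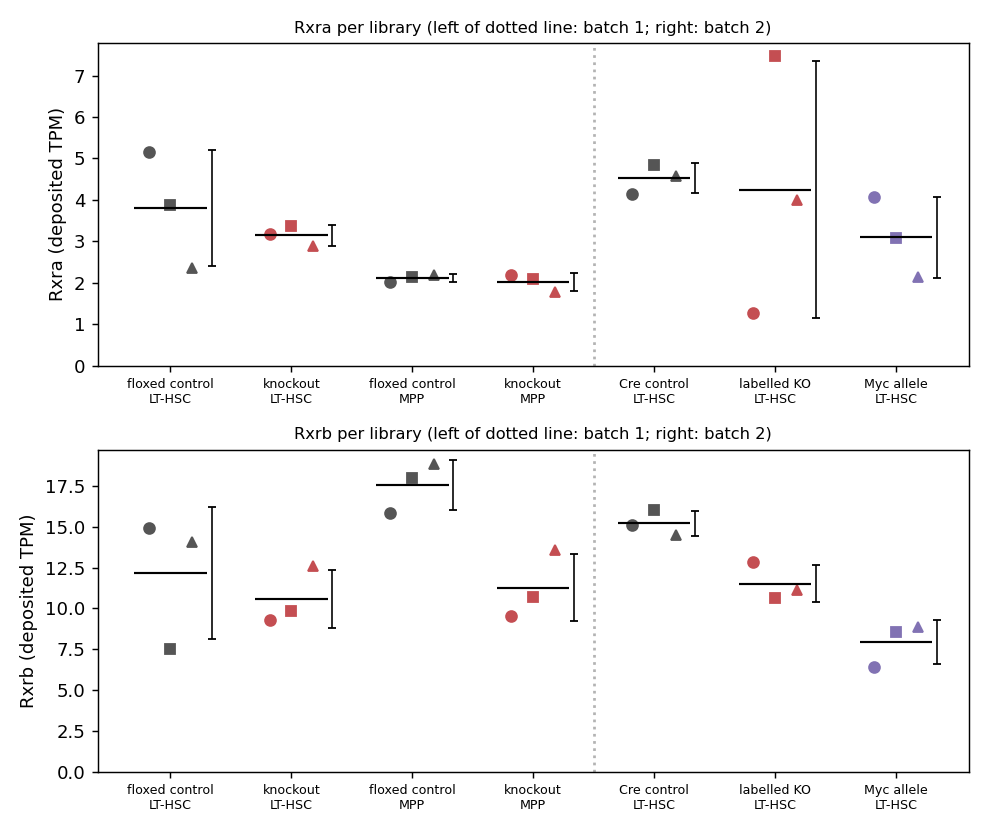
Deposited TPM of Rxra (upper panel) and Rxrb (lower panel), 1 point per library, with the replicate shown by its symbol, the group mean as a line and 1 SD as a bar (n = 3), batch 1 left of the dotted line. The libraries labelled knockout in batch 2 span 1.27 to 7.46 TPM for Rxra, and the Rxrb points of knockout MPP, labelled knockout LT-HSC and Myc allele LT-HSC lie below those of their own controls.

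The difference between knockout and floxed control was also compared between cell types, and the difference of the libraries labelled knockout from their controls between batches, each as an interaction term. Between MPP and LT-HSC of batch 1 this term was 0.12 on the log2 scale for Rxra (adjusted p = 0.771) and −0.46 for Rxrb (adjusted p = 0.338), against −0.45 for the median gene, and 0.0809% of genes passed. After rescaling it was 0.58 for Rxra (adjusted p = 0.445) and 0.06 for Rxrb (adjusted p = 0.917), with 0.04 for the median gene and 0.027% of genes called. Between batch 2 and batch 1 it was −0.10 for Rxra (adjusted p = 0.882) and −0.23 for Rxrb (adjusted p = 0.601), against −0.73 for the median gene, and 1.27% of genes passed. Rescaling moved all genes together, to a median of −0.02, and gave 0.56 for Rxra and 0.54 for Rxrb, with 0.124% of genes called. None of these differences passed on either scale.

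**Figure D3:**
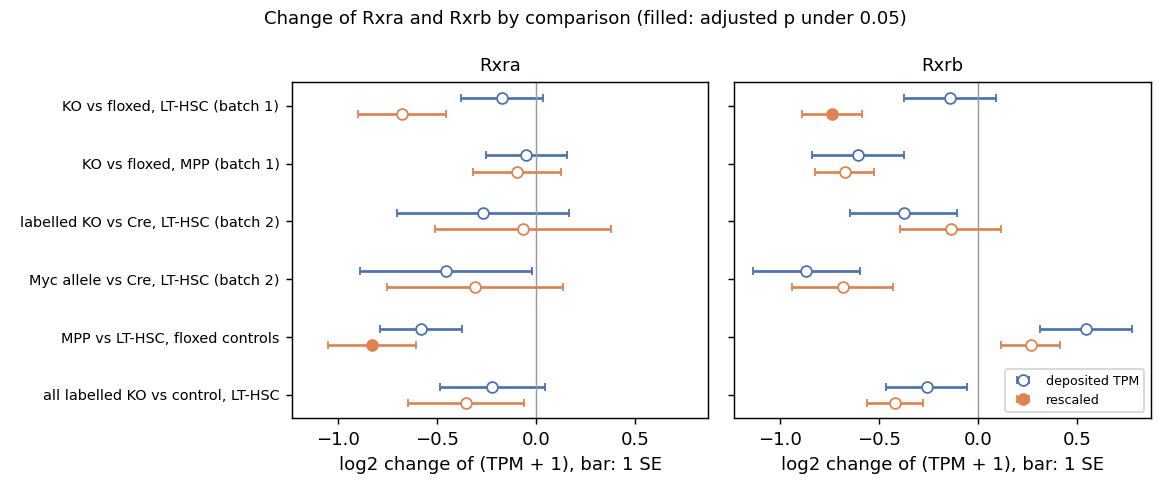
Log2 change of (TPM + 1) with 1 SE for Rxra and Rxrb in the 6 comparisons, from deposited TPM (blue) and after rescaling (orange), with filled points where the limma adjusted p was under 0.05. The filled points are Rxrb in LT-HSC of batch 1 at −0.74 and Rxra in MPP against LT-HSC at −0.83, both rescaled.

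In the floxed controls Rxra had the lower mean in MPP and Rxrb the higher one. Neither difference passed in the unpaired fit of the deposited TPM, and that of Rxra passed with libraries of the same code paired. Rxra stood at 2.12 ± 0.0905 TPM (SD, n = 3) in floxed control MPP and at 3.803 ± 1.40 TPM (SD, n = 3) in floxed control LT-HSC. All MPP values were lower, as for 8.55% of all genes tested. Its log2 change of −0.58 (SE 0.21) missed the threshold at an adjusted p of 0.0579, with 21.2% of genes called, 5.62% as lower and 15.5% as higher. The descriptions give the LT-HSC and MPP libraries of a replicate number the same code, and with that pairing as a block the adjusted p was 0.0439. Deviations of these floxed control pairs from their group means correlated at only 0.06 to 0.22. After rescaling the log2 change was −0.83 (SE 0.22, adjusted p = 0.0163, with 23.9% of genes called). That call was lost without floxed control LT-HSC 1, floxed control LT-HSC 2 or floxed control MPP 1 (adjusted p = 0.0655, 0.0665 and 0.0550).

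Rxrb was 17.5 ± 1.54 TPM (SD, n = 3) in floxed control MPP and 12.2 ± 4.04 TPM (SD, n = 3) in floxed control LT-HSC. All MPP values were higher, as for 31.1% of genes. The log2 change was 0.54 (SE 0.23, adjusted p = 0.105, 0.0601 with the block), where 76.5% of genes had a lower one, and 0.27 after rescaling (adjusted p = 0.224), where the levels overlapped. The 6 B cell markers, at 2155 to 11705 TPM in floxed control MPP, summed to 9.83 to 216 TPM in floxed control LT-HSC, and the part of such cells in these differences was not tested.

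The ratio of Rxrb to Rxra does not depend on how a library is scaled. Its log2 value was 3.05 ± 0.0673 (SD, n = 3) in floxed control MPP and 1.69 ± 0.816 (SD, n = 3) in floxed control LT-HSC, without overlap, a difference of 1.36 (exact two-sided permutation p = 0.1). In share terms Rxrb made up 88.7% ± 0.585 of all retinoid X receptor TPM in floxed control MPP, 74.8% ± 9.72 in floxed control LT-HSC and 77.0% ± 1.25 in Cre control LT-HSC (SD, n = 3 each). Rxrg added at most 0.343 TPM in any library.

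In knockout MPP the ratio was lower than in its controls. It was 2.47 ± 0.420 (SD, n = 3) in knockout MPP, with no overlap with floxed control MPP (exact two-sided permutation p = 0.1), and the summed receptor level was 13.5 TPM against 19.8 TPM. In knockout LT-HSC of batch 1 it was 1.74 ± 0.335, next to 1.69 in the floxed controls (exact two-sided permutation p = 0.8). The libraries labelled knockout in batch 2 spread from 0.51 to 3.34 around a mean of 1.77, next to 1.75 ± 0.106 in the Cre controls. With the Myc allele the mean was 1.39 ± 0.710, overlapping the controls, while the summed receptor level was 11.1 TPM against 19.8 TPM in the Cre controls. Whether the ratio changed more in MPP than in LT-HSC was not tested.

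**Figure D4:**
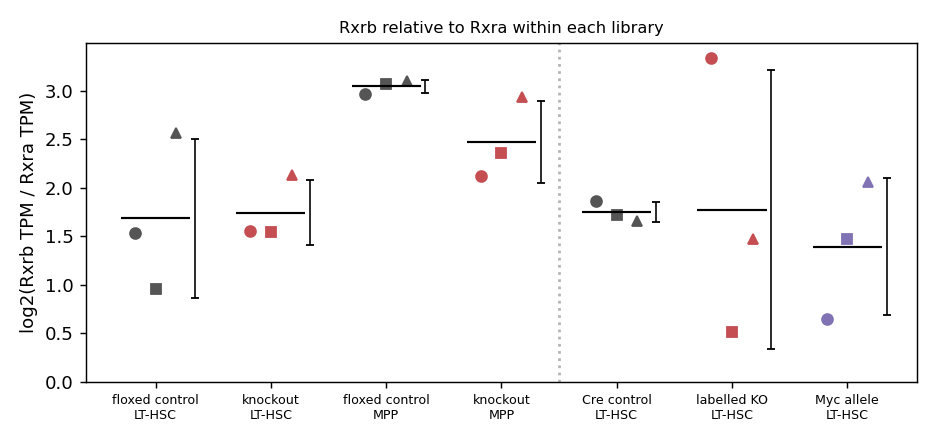
Log2 of the ratio of Rxrb TPM to Rxra TPM within each library, with the group mean as a line and 1 SD as a bar (n = 3), the replicate shown by its symbol, batch 1 left of the dotted line. Floxed control MPP lie at about 3.05 with little spread, above all LT-HSC controls, and the libraries labelled knockout in batch 2 run from 0.51 to 3.34.

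The events of Rxrb are a pair of alternative 3' splice sites in exon block 6. From position 34036757 on chromosome 17 (mm10) one junction ends at 34036861 and the other at 34036873. The sites are 12 bases apart, a length of 4 codons that keeps the reading frame, and the PSI values of the 2 events add up to 1, so a single value describes both. The upstream site had PSI 0.475, 0.323 and 0.346 in floxed control LT-HSC and 0.481, 0.188 and 0.526 in knockout LT-HSC. In MPP it had 0.245, 0.324 and 0.273 in the floxed controls and 0.60, 0.212 and 0.432 in the knockouts. Knockout libraries lay on both sides of the controls in both cell types.

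In batch 2 the same site had PSI 0.268, 0.518 and 0.294 in the Cre controls and 0.967, 0.619 and 0.333 in the libraries labelled knockout. Labelled knockout 4, with 0.967, is the highest of the series and is also the library with the lowest Rxra level. With the Myc allele 2 libraries had values, 0.368 and 0.167. No comparison passed. The limma adjusted p was 1 in batch 1 LT-HSC and 0.792 in batch 1 MPP (0.127% of events called in each), and 0.801 between MPP and LT-HSC controls (0.402%). It was 0.658 over both batches (0.003%). Missing values kept the site out of the limma fit of batch 2, where the exact two-sided permutation p of the labelled knockouts was 0.2.

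Genes of the receptor pathway were read from 5 lists: pairing partners, coregulators, and targets of LXR, of RAR (with retinoid metabolism) and of PPAR. In LT-HSC of batch 1 the deposited TPM gave mostly higher calls, as for 44.6% of all genes. Of 11 partners tested 4 rose and 1 fell, and of 16 coactivators and corepressors 6 rose and none fell, with list medians of 0.47 and 0.37 against 0.52 for all genes. The partners that rose were Vdr, the vitamin D receptor (0.85, adjusted p = 0.00932), Thra, a thyroid hormone receptor, Rarg and Ppard, and none of them passed after rescaling. In the deposited TPM the Vdr call was lost without knockout LT-HSC 3 (adjusted p = 0.0535), and the calls of Thra, Rarg and Ppard were each lost without knockout LT-HSC 2 or knockout LT-HSC 3 (adjusted p up to 0.0799, 0.0908 and 0.0836), that of Ppard also without floxed control LT-HSC 3 (0.0530). Among the coregulators that rose were the acetyltransferase gene Kat2b (0.75, adjusted p = 0.00949) and the corepressor genes Tbl1xr1 (0.58, adjusted p = 0.0136) and Nrip1 (0.62, adjusted p = 0.0205), and after rescaling no coregulator passed. These 3 calls too were each lost without knockout LT-HSC 2 or knockout LT-HSC 3 (adjusted p of 0.0508 to 0.0927). Rarb, a retinoic acid receptor gene that is itself a target of RAR, fell from 2.88 to 1.47 TPM (−0.62, adjusted p = 0.0241, and −1.06 rescaled, adjusted p = 0.0311). This Rarb call was lost in the deposited TPM without floxed control LT-HSC 2, knockout LT-HSC 2 or knockout LT-HSC 3 (adjusted p = 0.0940, 0.0749 and 0.0806). After rescaling it was lost without floxed control LT-HSC 1, floxed control LT-HSC 2, knockout LT-HSC 2 or knockout LT-HSC 3 (adjusted p = 0.0502, 0.0579, 0.1004 and 0.158).

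Of 9 genes of the RAR list tested in LT-HSC of batch 1, 4 were called higher and 2 lower, where 44.6% of all genes were called higher and 0.58% lower. After rescaling 1 was called higher and 2 lower, where 2.2% and 2.47% of all genes were. The lower calls on both scales were Rarb and Cyp26b1. Cyp26b1, which breaks down retinoic acid, stood at 3.43, 3.47 and 1.13 TPM in the floxed controls and at 0.0434, 0.0277 and 0.226 TPM in the knockouts. It reached 1 TPM in no other library of batch 1, so it entered the fit only through the group where it is high, and the values are given as a description without a test. Dhrs3, which reduces retinal to retinol, stood at 4.36, 3.75 and 3.57 TPM in the floxed controls and at 12.9, 14.8 and 18.8 TPM in the knockouts. Its log2 change was 1.74 (SE 0.18, adjusted p = 2.2e-04, and 0.00636 rescaled), and it passed on both scales with any of the 6 libraries left out. Aldh1a3, which makes retinoic acid, had a mean of 0.715 TPM in the floxed controls and 2.45 TPM in the knockouts. The control mean is below the 1 TPM of the filter, so these values are given as a description without a test.

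Mylip, an LXR target, was called lower on both scales and in both cell types of batch 1. It encodes a ubiquitin ligase. In LT-HSC it stood at 7.70, 6.16 and 5.26 TPM in the floxed controls and at 1.94, 2.92 and 3.57 TPM in the knockouts, a log2 change of −0.96 (SE 0.23, adjusted p = 0.00843, and −1.49 rescaled, adjusted p = 0.00406) that passed with any of the 6 libraries left out. Of 13 LXR targets tested there, 2 rose (Lpl and Apoe) and 1 fell, and after rescaling none rose and 5 fell (Mylip, Fasn, Arl4c, Scd2 and the cholesterol exporter Abca1), with a list median of −0.55 against −0.03 for all genes and 2.47% of all genes called lower. Of these 5 only the Mylip call held with any of the 6 libraries left out. Without knockout LT-HSC 3 the other calls were lost (adjusted p = 0.0956 for Fasn, 0.0970 for Arl4c, 0.120 for Scd2 and 0.199 for Abca1), and without knockout LT-HSC 2 so were those of Arl4c, Scd2 and Abca1 (adjusted p = 0.0586, 0.0825 and 0.127). Abca1 also failed without floxed control LT-HSC 1 or floxed control LT-HSC 2 (adjusted p = 0.0768 and 0.0911). The Apoe call in the deposited TPM was lost without floxed control LT-HSC 2, knockout LT-HSC 2 or knockout LT-HSC 3 (adjusted p = 0.0669, 0.0541 and 0.0506). PPAR targets gave 2 higher calls of 16 tested, a smaller share than the 44.6% of all genes, among them Slc25a20 of fatty acid oxidation (adjusted p = 0.0244, and up to 0.0899 without floxed control LT-HSC 2, knockout LT-HSC 2 or knockout LT-HSC 3). After rescaling there was 1 lower call, Ucp2 (−0.87, adjusted p = 0.0121, and 0.0785 without knockout LT-HSC 3), where 2.47% of all genes were lower.

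In knockout MPP the passing genes of all 5 lists were 2 of the 13 LXR targets tested, both lower, where 0.243% of all genes fell. Arl4c, a small GTPase of vesicle traffic, stood at 13.7, 10.3 and 14.5 TPM in the floxed controls and at 3.99, 3.78 and 4.05 TPM in the knockouts (−1.47, SE 0.19, adjusted p = 0.00343). Mylip stood at 10.3, 8.70 and 7.74 TPM in the floxed controls and at 2.55, 3.05 and 4.90 TPM in the knockouts (−1.17, SE 0.23, adjusted p = 0.0442). The Arl4c call held with any of the 6 libraries left out. The Mylip call was lost without any library other than knockout MPP 3 (adjusted p of 0.0786 to 0.232). Neutrophil markers were higher in these knockouts too, with 5 genes summing to 267 to 782 TPM against 42.5 to 208 TPM in MPP and to 125 to 1218 TPM against 32.6 to 55.0 TPM in LT-HSC of batch 1. The 6 B cell markers summed to 364 to 890 TPM in knockout LT-HSC against 9.83 to 216 TPM in floxed control LT-HSC. In MPP they summed to 681 to 6022 TPM in the knockouts against 2155 to 11705 TPM in the floxed controls. Only 2 of the 6 reached 1 TPM in all knockout LT-HSC libraries. Most other marker lists were higher in knockout LT-HSC too, where 44.6% of all genes were called higher. The LT-HSC markers summed to 797 to 942 against 404 to 775 TPM, and the MPP markers to 64.6 to 130 against 31.6 to 60.8 TPM. Erythroid markers summed to 34.9 to 98.8 against 77.1 to 248 TPM. The part of such cells in these results was not tested.

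In batch 2 no gene of the 5 lists passed, either for the labelled knockouts or with the Myc allele, where limma called 0.0744% and 0.104% of all genes (616 and 1267 genes had an unadjusted p under 0.05). Libraries of a group differed among themselves. Mylip stood at 5.81, 5.55 and 5.34 TPM in the Cre controls, at 3.33, 2.71 and 5.38 TPM in labelled knockouts 4, 5 and 6, and at 2.37, 7.70 and 1.36 TPM in Myc allele LT-HSC 1, 2 and 3. Dhrs3 stood at 4.88, 8.54 and 5.81 TPM in the Cre controls and at 2.99, 4.44 and 7.80 TPM in labelled knockouts 4, 5 and 6. In Myc allele LT-HSC 1, 2 and 3 it stood at 12.3, 1.66 and 9.28 TPM. Within the Myc allele group the library with a skipping PSI of 0 at Rxra thus had the highest Mylip level and the lowest Dhrs3 level of the 3. Vdr and Rarg, which rose in batch 1 knockout LT-HSC, were likewise lowest in Myc allele LT-HSC 2. Abca1, lower in those knockouts after rescaling, was highest in it. Cyp26b1, Rarb, Lpl and Arl4c did not follow that order. Arl4c, lower in batch 1 knockout LT-HSC after rescaling, stood at 2.77, 3.03 and 4.39 TPM in Myc allele LT-HSC 1, 2 and 3. In Myc allele LT-HSC 1, 2 and 3 Cyp26b1 was listed at 0.127, 0 and 0.483 TPM. Rarb, lower in batch 1 knockout LT-HSC, stood at 1.45, 1.29 and 2.18 TPM, and Lpl, higher there, at 4.81, 16.6 and 6.97 TPM. In the labelled knockouts 4, 5 and 6 Cyp26b1 stood at 0.661, 0.150 and 2.12 TPM, against 3.42, 3.84 and 1.24 TPM in the Cre controls. Over both batches of LT-HSC no gene of the lists other than Cyp26b1 passed. Cyp26b1 reached 1 TPM there in all 6 controls and in a single library of the other group, so it entered that fit through the controls and its call is not used.

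**Figure D5:**
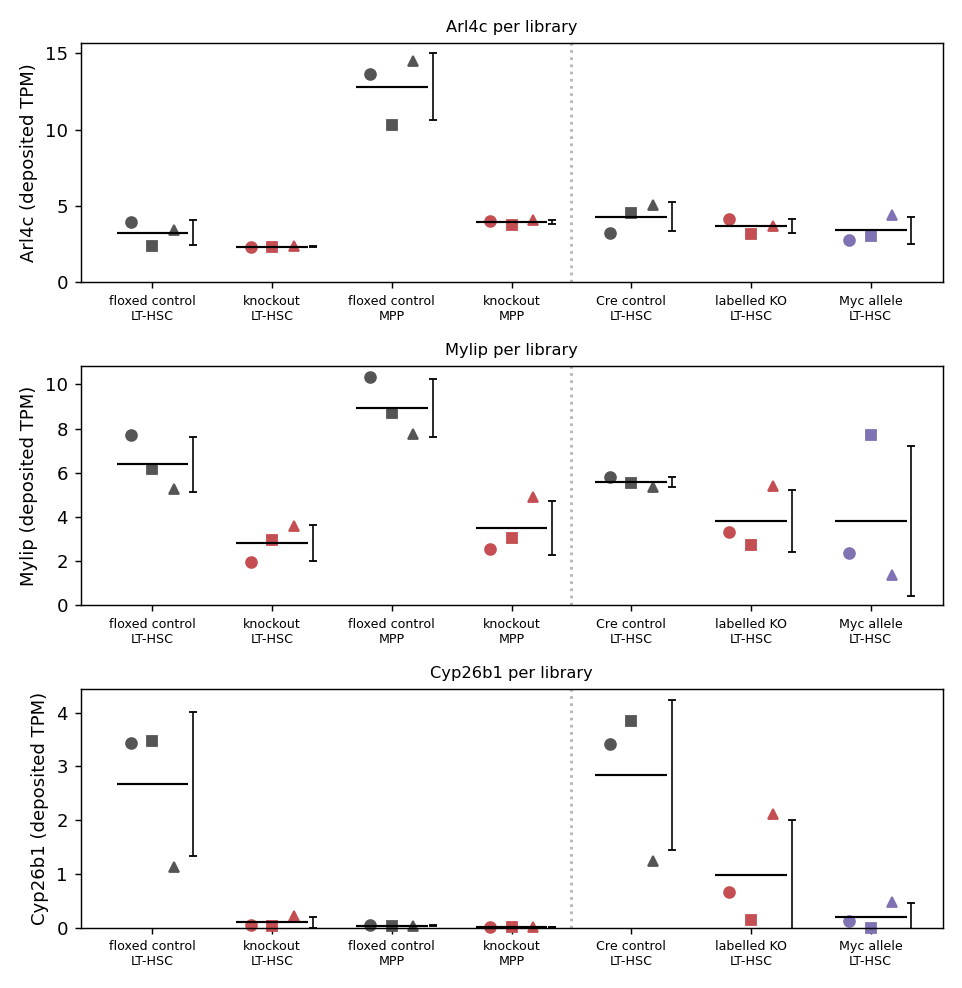
Deposited TPM of Arl4c, Mylip and Cyp26b1, 1 point per library, with the replicate shown by its symbol, the group mean as a line and 1 SD as a bar (n = 3), batch 1 left of the dotted line; bars that would pass below 0 end at the axis. Knockout MPP lie below all floxed control MPP for Arl4c and Mylip, and the Myc allele libraries run from 1.36 to 7.70 TPM for Mylip.

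In the unpaired fit of floxed control MPP against LT-HSC, 15.5% of all genes were called higher in MPP and 5.62% lower. There 1 of the 11 partners was higher in MPP and 4 were lower. Of 9 genes of the RAR list 2 were higher and 5 lower. The 5 include Cyp26b1, which entered only through the LT-HSC controls. They also include Rarb, which is among the 4 partners too and entered only through LT-HSC libraries. Rara, the alpha form of the retinoic acid receptor, rose from 5.08 TPM in LT-HSC to 10.2 TPM in MPP (0.89, adjusted p = 0.00867), a call that was lost without floxed control MPP 2 (0.75, adjusted p = 0.0542). Rarb stood at 2.88 TPM in LT-HSC and 0.292 TPM in MPP. It was below 1 TPM in every MPP library, so these values are given as a description without a test. Vdr fell from 11.3 to 3.99 TPM (−1.27, adjusted p = 6.29e-04). Tgm2, a transglutaminase induced by retinoic acid, was at 40.7 TPM in LT-HSC and 1.05 TPM in MPP (−4.29, adjusted p = 8.4e-09), and Aldh1a1, an enzyme that makes retinoic acid, at 83.7 and 3.47 TPM (−4.25, adjusted p = 1.57e-08). Arl4c was higher in MPP, at 12.8 against 3.24 TPM (1.71, adjusted p = 1.38e-05), as was Dhrs3, at 22.7 against 3.90 TPM (2.27, adjusted p = 4.67e-07). Of the other lists, 1 coregulator of 16 was higher (Ncoa3), 1 LXR target of 13 was higher and 2 were lower (Apoe and Smpdl3a), and 2 PPAR targets of 16 were higher (Fabp5 and Angptl4) and 1 was lower. Of these genes Ncoa3 and Fabp5 did not pass after rescaling (adjusted p = 0.176 and 0.0635). With a library left out in turn, the deposited TPM calls of Ncoa3 (adjusted p up to 0.104), Fabp5 (up to 0.0777) and Angptl4 (0.0568 without floxed control MPP 2) were lost.

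The neighbour of Rxrb had overlapping levels in knockout and floxed control MPP. Slc39a7, across the 121 bases shown above, stood at 11.9 ± 1.85 TPM (SD, n = 3) in floxed control MPP and 12.8 ± 1.64 TPM (SD, n = 3) in knockout MPP (log2 change 0.11, adjusted p = 1), next to the −0.61 of Rxrb. In LT-HSC of batch 1 its log2 change was 0.15 (−0.45 rescaled, adjusted p = 0.0974), and with the Myc allele −0.70 (adjusted p = 0.503). Whether the changes of the 2 genes differ was not tested. Col11a2, a collagen gene that starts 516 bases after the end of Rxrb, had a log2 change of 0.05 (adjusted p = 1) in knockout MPP. The genes annotated on either side of Rxra, Gm52506 and Gm39777, are long noncoding RNAs that could not be matched to the expression table.

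Rxra and Rxrb did not vary together. Over the 21 libraries the Pearson r of their log2(TPM + 1) was −0.15. Among 9981 genes at 1 TPM or more in every library, the genes most like Rxra were Eepd1 (r = 0.80, Spearman rho 0.78), Eid2 (0.77, rho 0.78), Arntl (0.76, rho 0.73), Jade2 (0.75, rho 0.69) and Zcchc24 (0.75, rho 0.72). Among the 5 most like Rxrb were Arl4c (0.68, rho 0.70), Cdc25c (0.68, rho 0.68), H2-Ab1 (0.68, rho 0.70) and Idi1 (0.68, rho 0.71). The libraries share groups and a library's scale. After taking each group's mean out, r with Rxra was 0.81 for Eepd1 and 0.63 to 0.68 for its other genes named. With Rxrb it fell to 0.56 for Arl4c, 0.50 for Cdc25c, 0.31 for H2-Ab1 and 0.62 for Idi1. These are the highest of many and are given as a description.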

How the data were processed

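RNA of 21 libraries was analysed. The authors deposited TPM per Ensembl gene, and kallisto and the build mm10 are named in the submitters' processing notes. Columns sum to 691094 to 918942 TPM, and read depth is unknown, so no counting error is given. The authors also deposited splicing values as fractions of 0 to 1 (PSI), with STAR 2.6 named in the submitters' processing notes. No source used here names the event caller or states its read minimum. The table holds selected events, whose spread over libraries, as the authors deposited it, is at least 0.15.

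The reference table gave symbols for 27458 identifiers (94.73%), and gene positions are those of RefSeq for GRCm38 (mm10). The test was that of limma 3.58.1 (R 4.3.3, intensity trend), for genes that reached 1 TPM in at least 3 libraries, on log2(TPM + 1), where the pseudocount of 1 understates changes of low genes, with Benjamini-Hochberg adjustment over all genes tested and a threshold of 0.05. The 12 libraries of batch 1 were fitted together, as were the 9 of batch 2, and the comparison over both batches had batch as a term. PSI was tested with limma where every library of a fit had a value, with calls at the same threshold where mean PSI also differed by 0.1 or more. Exact two-sided permutation tests compared single values. The gene fit was tried on simulated independent values for knockout against floxed control LT-HSC of batch 1 alone. These held no shift of whole libraries, so that trial does not test the scaling. Since samples come from pooled animals, p-values measure only the spread between such pools. Figures were drawn with matplotlib 3.10.9 in Python 3.11.15.

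Genes named are both receptors and Rxrg, list members that passed (at most the 4 of each list and comparison with the smallest adjusted p), the annotated neighbours, and the 5 genes most like each receptor; a few of these are not reported here. Abca1 in LT-HSC of batch 1 and the side-by-side values of passing genes in batch 2 were chosen after their values were seen. The members and lists were chosen with earlier results of these data known. Alternatives were another pseudocount, no filter, rescaling, quantile normalization, a replicate block, the compared groups alone and leaving out each library. Rescaling without single libraries, leave-one-out fits of list genes, and TPM without ENSMUSG00000089855 were added after seeing the data. Same-numbered LT-HSC and MPP libraries share a code in the descriptions, and the correlation of their deviations from group means was 0.06 to 0.22 in the floxed controls and 0.17 to 0.67 in the knockouts.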

Additional observations from a re-analysis of the deposited data

How the results depend on the processing

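The log2 changes of Rxra and Rxrb TPM were recomputed under 236 alternatives in all, of which 208 kept the direction and the side of the threshold, 8 passed where the reported value had not, and 20 changed sign, none of these with a call. Rxra in MPP against LT-HSC passed at −0.83 rescaled, −0.77 with quantile normalization, −0.58 with the replicate block (adjusted p = 0.0439) and −0.88 without ENSMUSG00000089855, and among the leave-one-out fits without floxed control LT-HSC 3 (−0.82, adjusted p = 0.00787). Rxrb in LT-HSC of batch 1 passed at −0.74 rescaled, −0.71 with quantile normalization and −0.86 rescaled without floxed control LT-HSC 2. Signs turned for the Rxra difference between batches (0.56 rescaled, 0.77 quantile, 0.38 rescaled without floxed control LT-HSC 2, 0.27 without ENSMUSG00000089855), for the Rxrb difference between cell types (0.064, 0.059 and 0.18 in the first 3 of these) and for the Rxrb difference between batches (0.54, 0.57, 0.68 and 0.20). The cause was not tested.

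Leaving out each library in turn moved Rxra from −0.41 to 0.031 in LT-HSC of batch 1, −0.090 to 0.013 in MPP, −0.71 to 0.24 for the labelled knockouts, −0.62 to −0.27 with the Myc allele, −0.82 to −0.38 in MPP against LT-HSC, −0.41 to 0.011 over both batches, −0.078 to 0.36 for the difference between cell types and −0.54 to 0.41 for that between batches. It moved Rxrb from −0.43 to 0.022 in LT-HSC of batch 1 and from −0.40 to 0.053 for the difference between batches. The log2 ratio moved from −0.31 to 0.50 in LT-HSC of batch 1, −0.76 to 0.65 for the labelled knockouts, −0.69 to 0.016 with the Myc allele and −0.35 to 0.36 over both batches, and the upstream Rxrb site from −0.047 to 0.12 in LT-HSC of batch 1.

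Genes called by limma over both LT-HSC batches numbered 61, and 0 with a pseudocount of 0.1, with no filter, rescaled (2932 genes at an unadjusted p under 0.05), with quantile normalization (2732) or rescaled without floxed control LT-HSC 2, 298 with the replicate block and 5 without ENSMUSG00000089855, and 0 to 387 with a library left out. In LT-HSC of batch 1 there were 6700, and 694 rescaled, 683 with quantile normalization, 377 rescaled without floxed control LT-HSC 2, 2004 without ENSMUSG00000089855 and 1934 to 8246 with a library left out. Knockout MPP gave 48, and 78 rescaled, 83 with the replicate block and 14 to 50 with a library left out. Labelled knockouts gave 10, and 18 with no filter and 5 to 9 with a library left out. The Myc allele gave 14, and 5 to 973, the latter without Myc allele LT-HSC 1, and MPP against LT-HSC 3139, and 1784 to 3816. Knockout and control libraries share only replicate numbers (correlation of deviations −0.21 to 0.36), so the block pairs no animals there, and it changed no other call of Rxra or Rxrb. With the Myc allele no paired analysis was possible because the groups share no numbers.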
